A study of Mus musculus with 18 samples.

Results

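The effect of CD28 deficiency was compared between Nrp1+ regulatory T cells (Treg) and conventional T cells (Tconv). For each gene the quantity is the CD28 effect in Nrp1+ Treg minus the CD28 effect in Tconv, each effect being the mean log2(FPKM + 1) of CD28-deficient libraries minus that of wild type libraries. It was taken over 12 of the 18 RNA sequencing libraries of the series, with groups read from the sample titles. A value above 0 means that expression with CD28 deficiency, relative to wild type, was higher in Nrp1+ Treg than in Tconv. All cells were sorted from the spleen of C57BL/6 mice that carried the Foxp3EGFP reporter allele, and the libraries were made from total RNA.

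The groups were CD28-/-Foxp3EGFP Nrp1+ Treg (which the study calls tTreg), Foxp3EGFP Nrp1+ Treg, CD28-/-Foxp3EGFP Tconv and Foxp3EGFP Tconv, with 3 libraries each. The CD28-/- mice lack CD28 in every cell type, not in T cells alone, and the controls also carry the Foxp3EGFP allele. Age and sex of the mice, pooling of animals and the surface gate of Tconv are not given in the sources used here. Nothing in the labels says that libraries of a group came from separate animals, so the spread behind the p-values is that between these samples and may be technical. Nrp1-negative Treg (pTreg in the study), with 3 libraries per genotype, entered neither side of the comparison, and their values are given beside some genes. Of 26665 genes listed in the files, 12113 entered the test because their FPKM (fragments per kilobase of transcript, scaled to all mapped fragments of the library) reached 1 in 3 or more of the 12.

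CD28 is the classical costimulatory receptor of T cells. It binds CD80 and CD86 on antigen-presenting cells and, together with the antigen receptor, signals through PI3K, Vav1 and PKC-theta to NF-kB and AP-1, which drives IL-2 production and the differentiation of naive Tconv into effector, type 1 (Th1) and follicular helper cells. Treg, which depend on the transcription factor Foxp3, need CD28 for their development in the thymus and for their upkeep and effector differentiation in the periphery. Nrp1 (neuropilin 1) is a surface receptor used to enrich Treg that arose in the thymus.

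Cd28 itself was not lower in the CD28-deficient libraries. It was 71.2, 76.3 and 80.6 FPKM in CD28-deficient Nrp1+ Treg, against 57.5, 59.7 and 62.9 FPKM in wild type Nrp1+ Treg. In Tconv it was 65.7, 117 and 84.0 FPKM in CD28-deficient libraries, against 33.6, 82.8 and 67.3 FPKM in wild type libraries. The groups did not overlap in Nrp1+ Treg, where the CD28-deficient libraries were the higher ones, and overlapped in Tconv. A value summed over all exons says nothing about the deleted part of the gene, which cannot be read from these files, so Cd28 is no check of the genotypes here.

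Foxp3 was 101, 105 and 87.9 FPKM in CD28-deficient Nrp1+ Treg, against 96.9, 112 and 137 FPKM in wild type Nrp1+ Treg. In CD28-deficient Tconv it was 0.067, 0.205 and 21.1 FPKM, against 0.203, 0.184 and 0.285 FPKM in wild type Tconv. Replicate 3 of the CD28-deficient Tconv thus stood apart from the other 5 Tconv libraries. It also held 12.8 FPKM of Nrp1, 20.5 of Ikzf2 (Helios), 24.0 of Il2ra and 17.8 of Lrrc32 (GARP), genes that are abundant in Nrp1+ Treg, where the other 5 Tconv libraries held at most 5.08, 4.90, 2.01 and 0.10 FPKM. Results that rest on this library, called CD28-deficient Tconv replicate 3 throughout, are given with and without it. Over the 12 libraries Cd3e lay between 392 and 610 FPKM and Cd4 between 167 and 306 FPKM, Cd8a reached at most 0.680 FPKM, and FPKM totals ran from 514726 to 994139 per library. Cd8b1, the other CD8 chain, lay between 5.93 and 6.20 FPKM in CD28-deficient and 5.61 and 7.07 FPKM in wild type Nrp1+ Treg, and between 10.5 and 12.6 FPKM in CD28-deficient and 7.46 and 9.71 FPKM in wild type Tconv. Its effect in Tconv, 0.38, did not pass (adjusted p = 0.231).

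Wild type Tconv replicate 1 also stood apart. It had the highest FPKM total, the next being 650609, and held Hspa1a, a heat shock gene, at 86.2 FPKM, against 5.48 and 19.0 FPKM in the other wild type Tconv. The highest Ccl5, Ifng and Gzmk values below are also of this library. Without it 84 genes passed in Tconv, 83 of them lower, 33 passed in Nrp1+ Treg and 8 for the difference.

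Between the populations, the CD28 effect differed for 2 of 12113 genes in limma's test at a Benjamini-Hochberg adjusted p under 0.05, which is 0.0165% of the genes tested, and both differences were above 0. They are Mir1247, a microRNA locus, and Itga7, the alpha 7 integrin subunit, which pairs with beta 1 to bind laminin. At an unadjusted p under 0.05 there were 362 genes, 294 above 0 and 68 below 0. The median difference of all tested genes was 0.12, and 73.9% of them were above 0. That shift depends on scaling, as it was 0.00 after quantile normalization, 0.02 after median centring and -0.05 when libraries were brought to the same sum without microRNA loci, so sizes below are best read against 0.12.

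Itga7 lies on chromosome 10 (chr10:128933818-128958282, GRCm38, plus strand). It was 2.95, 3.16 and 3.16 FPKM in CD28-deficient Nrp1+ Treg, against 2.01, 2.0 and 1.83 FPKM in wild type Nrp1+ Treg. In Tconv the order of the genotypes was the opposite, with 1.88, 1.89 and 1.78 FPKM in CD28-deficient libraries and 4.11, 3.96 and 3.34 FPKM in wild type libraries. Neither pair of groups overlapped, and CD28-deficient Tconv replicate 3 lay with its group. The difference of CD28 effects was 1.22 ± 0.15 (SE, 95% interval 0.90 to 1.55, limma adjusted p = 0.0287). The effect was 0.47 in Nrp1+ Treg, which did not pass (adjusted p = 0.185), and -0.75 in Tconv, which did (adjusted p = 0.00761). In Nrp1-negative Treg Itga7 was low in both genotypes, at 0.596, 0.318 and 0.466 FPKM in CD28-deficient libraries and 0.313, 0.487 and 0.423 FPKM in wild type libraries, with groups that overlapped. Over 23 alternative settings the Itga7 difference stayed above 0, between 1.08 and 1.63, and it passed the test in 8 of them (adjusted p 0.00736 to 0.304). It kept its call without CD28-deficient Tconv replicate 3 (1.20 ± 0.16, adjusted p = 0.0245), wild type Tconv replicate 1 or wild type Tconv replicate 3, and not on leaving out any one of the other 9 libraries (adjusted p 0.0676 to 0.164).

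Mir1247 (chr12:110278048-110278129, GRCm38, minus strand) was 39.5, 31.8 and 28.0 FPKM in CD28-deficient Nrp1+ Treg and was listed at 0 in the other 9 libraries compared and in all 6 libraries of Nrp1-negative Treg. The difference was 5.08 ± 0.17 (SE, limma adjusted p = 1.15e-07), on a scale where the size depends on the pseudocount, so no fold is given. It entered the test through the CD28-deficient Nrp1+ Treg libraries alone. A second locus, Mir3058, was 26.2, 21.0 and 22.3 FPKM in CD28-deficient Nrp1+ Treg and 0 in wild type Nrp1+ Treg. In Tconv it was 0, 0 and 26.3 FPKM in CD28-deficient libraries and 0 in wild type libraries, so that the one Tconv value above 0 lay in replicate 3. Among the Nrp1-negative Treg it was 27.0 FPKM in CD28-deficient replicate 3 and 0 in the other 5 libraries. The Mir3058 difference of 3.0 did not pass with all 12 libraries (adjusted p = 1.0). The values are of reads at the hairpin locus in libraries of total RNA, not of the mature microRNA. Among 99 microRNA loci tested, 37% of the values in the 12 libraries were listed at 0 and 4 lay above 0 and under 1, with a median of 75 FPKM among those above 0, whereas 0.37% of the values of the other tested genes were at 0. How much of the pattern at these loci follows from that all-or-none distribution was not tested. The mature sequences of both hairpins are shown because the difference at Mir1247 passed with all 12 libraries and that at Mir3058 passed without CD28-deficient Tconv replicate 3, from RefSeq on GRCm38.p6, 5′ to 3′, with the seed (bases 2 to 8) in capitals.
mmu-miR-1247-5p: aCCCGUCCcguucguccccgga
mmu-miR-1247-3p: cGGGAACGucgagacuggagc
mmu-miR-3058-5p: uCAGCCACggcuuaccuggaaga
mmu-miR-3058-3p: uUCCUGUCagccgugggugcc
The 4 arms have 4 different seeds.

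**Figure D1:**
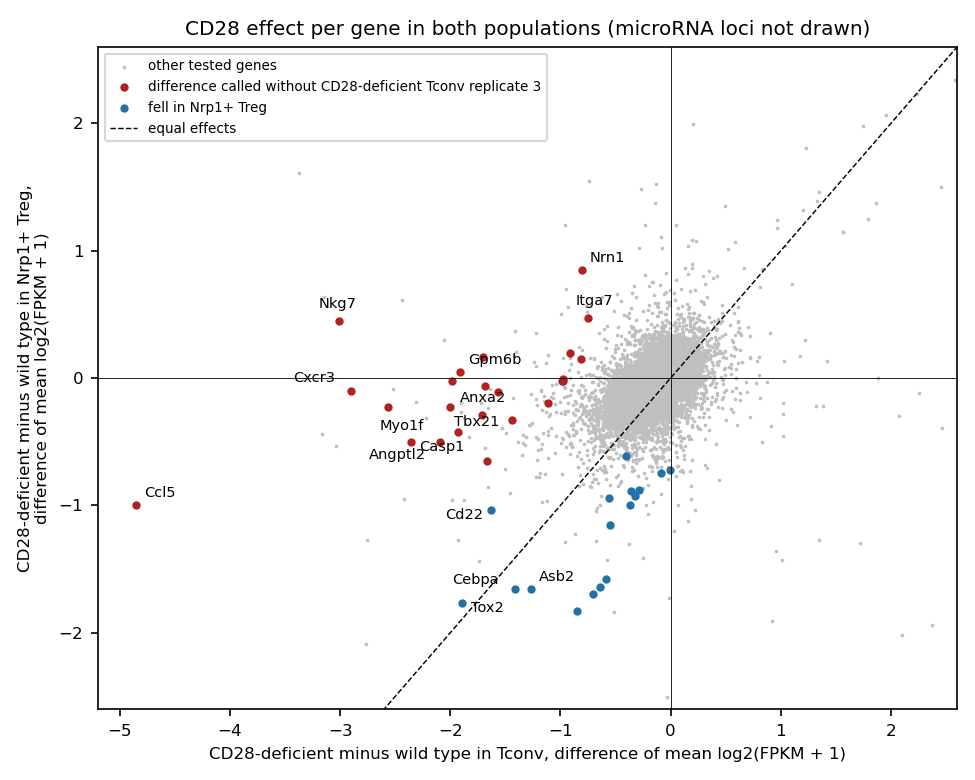
CD28 effect per gene in Nrp1+ Treg (vertical axis) and in Tconv (horizontal axis), each as CD28-deficient minus wild type mean log2(FPKM + 1), over all 12 libraries. Red points are the 24 genes, microRNA loci aside, whose difference passed without CD28-deficient Tconv replicate 3, blue points the 17 genes that fell in Nrp1+ Treg, and the dashed line marks equal effects; 25 features lie outside the axes. The red points lie to the left of the line, with Nrp1+ Treg effects between -1.0 and 0.85 and Tconv effects below 0.

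Each side of the comparison taken alone gave more calls. In Nrp1+ Treg 21 genes passed (0.173% of those tested), of which 17 fell (0.14%) and 4 rose (0.033%). Of the 17, 7 entered the test through wild type Nrp1+ Treg alone, and of the 4, 3 entered through CD28-deficient Nrp1+ Treg alone, so these 10 had to differ to be tested (39 of all 12113 genes entered through a single group). In Tconv 114 genes passed, which is 0.941%, and all 114 fell with CD28 deficiency, 7 of them having entered through wild type Tconv alone. Single libraries moved these counts: without CD28-deficient Nrp1+ Treg replicate 1, 2 or 3 the Nrp1+ Treg calls were 8, 1 and 2, and without CD28-deficient Tconv replicate 1, 2 or 3 the Tconv calls were 29, 55 and 210. The median effect of all genes was -0.05 in Nrp1+ Treg and -0.16 in Tconv. A call in one population and none in the other does not show that the effects differ, and for all but the genes above the test of the difference did not pass with 12 libraries.

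The 5 genes of lowest p above 0 that did not pass were Myo1f, Gpm6b, Smtn, Gzmk and Tbx21, and all 5 fell in Tconv. Tbx21 encodes T-bet, the transcription factor that directs Th1 differentiation. It was 2.40, 2.77 and 3.10 FPKM in CD28-deficient Nrp1+ Treg, against 3.96, 2.88 and 3.41 FPKM in wild type Nrp1+ Treg. In CD28-deficient Tconv it was 0.563, 0.475 and 1.05 FPKM, against 7.90, 4.70 and 5.04 FPKM in wild type Tconv. Groups overlapped in Nrp1+ Treg and were far apart in Tconv, where all 3 CD28-deficient libraries lay below the lowest wild type library. The difference was 1.78 ± 0.27 (adjusted p = 0.0761), with an effect of -0.23 in Nrp1+ Treg and -2.01 in Tconv. Without CD28-deficient Tconv replicate 3 it was 1.92 and passed (adjusted p = 0.0245).

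Myo1f, a class I myosin of blood cells, showed the same arrangement. It was 11.02, 9.62 and 8.19 FPKM in CD28-deficient Nrp1+ Treg and 13.7, 10.7 and 10.01 FPKM in wild type Nrp1+ Treg, with overlap. In Tconv it was 0.717, 0.706 and 1.80 FPKM in CD28-deficient libraries and 13.8, 11.2 and 8.34 FPKM in wild type libraries, without overlap. Its difference was 2.33 ± 0.33 (adjusted p = 0.0635 with all 12 libraries, 0.00503 without CD28-deficient Tconv replicate 3). Gpm6b, a membrane glycoprotein of the proteolipid protein family, was 6.51, 6.82 and 7.0 FPKM in CD28-deficient Nrp1+ Treg and 6.51, 6.77 and 6.303 FPKM in wild type Nrp1+ Treg. In Tconv it was 0.616, 0.567 and 1.57 FPKM in CD28-deficient libraries and 4.63, 6.498 and 7.25 FPKM in wild type libraries. The Gpm6b difference was 1.96 ± 0.28 (adjusted p = 0.0635 with all 12 libraries, 0.00366 without replicate 3). Wild type levels of Myo1f, and likewise of Gpm6b, overlapped between the populations.

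Smtn (smoothelin, a cytoskeletal protein) and Gzmk (granzyme K, a granule protease) are marked as near 0 in wild type Nrp1+ Treg, that is, with a wild type mean under 1 FPKM there and of 1 or more in Tconv. Smtn was 0.411, 0.379 and 0.208 FPKM in CD28-deficient and 0.374, 0.259 and 0.535 FPKM in wild type Nrp1+ Treg, against 0.148, 0.143 and 0.122 FPKM in CD28-deficient and 3.88, 2.37 and 1.997 FPKM in wild type Tconv. Gzmk was listed at 0 in all 3 CD28-deficient Nrp1+ Treg libraries and at 0.201, 0 and 0 FPKM in the wild type ones, while in Tconv it was 0.086, 0.157 and 0 FPKM in CD28-deficient and 9.75, 3.84 and 3.56 FPKM in wild type libraries. Both had little room to fall in Nrp1+ Treg, so their differences (1.63 and 2.43, adjusted p = 0.0652 and 0.0761) carry no more than the fall in Tconv. Without wild type Tconv replicate 1 they were 1.42 and 2.03 and passed (adjusted p = 0.0226 and 0.00124). Both genes entered the test through wild type Tconv alone, so they had to differ to be tested, and their p-values are descriptions. Of the 12113 tested genes, 266 were near 0 in wild type Nrp1+ Treg, 543 were near 0 in wild type Tconv and 173 were under 1 in both. Among the 21 genes called in Nrp1+ Treg 9 were near 0 in wild type Tconv and 4 were under 1 in both, and among the 114 that fell in Tconv 10 were near 0 in wild type Nrp1+ Treg.

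**Figure D2:**
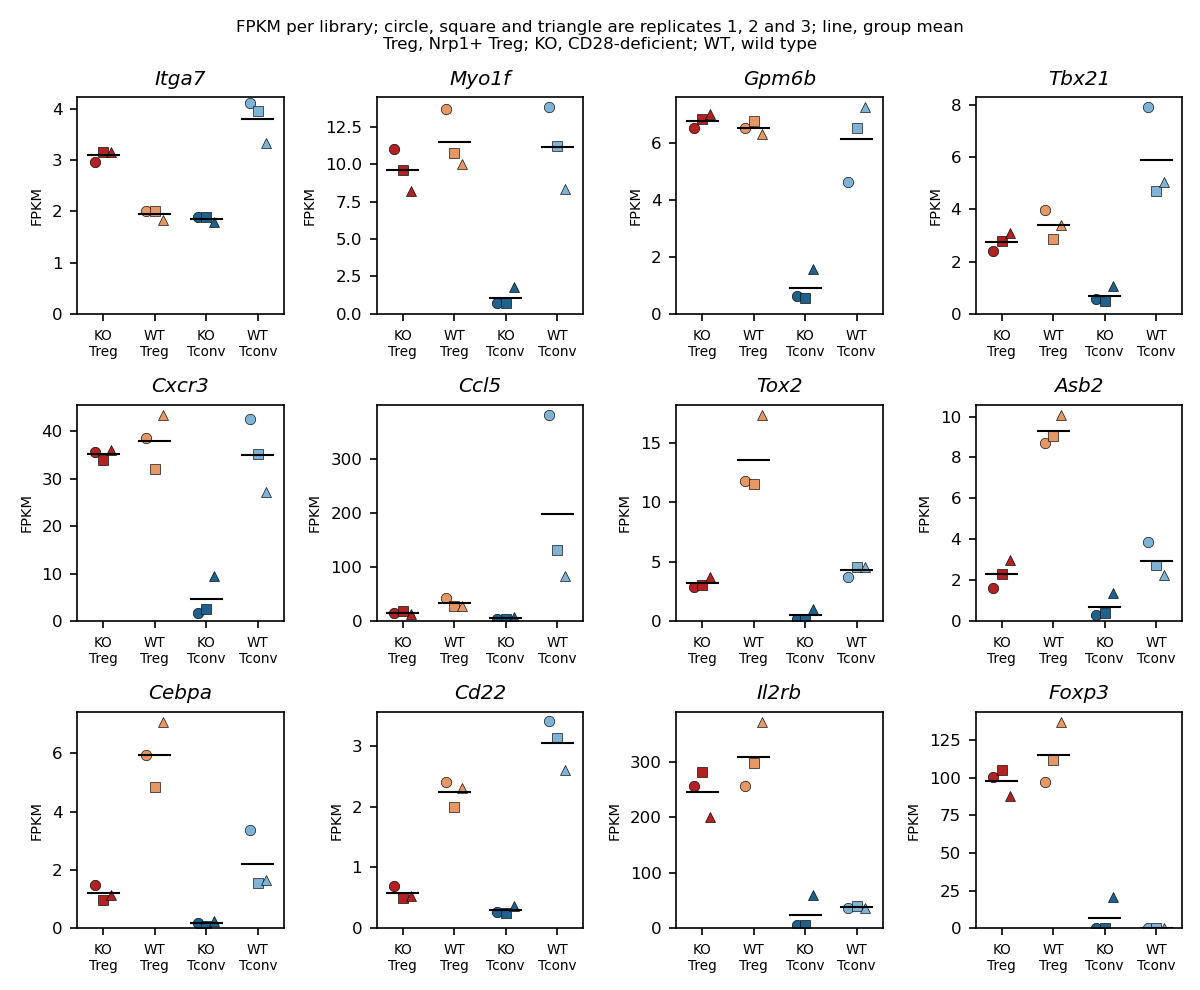
FPKM of 12 genes in each of the 12 libraries, with CD28-deficient (KO) left of wild type (WT) in Nrp1+ Treg and then in Tconv; symbols stand for replicates 1, 2 and 3 and bars for group means, and each panel has its own linear axis from 0. Itga7 is higher with CD28 deficiency in Nrp1+ Treg and lower in Tconv, Myo1f, Gpm6b, Tbx21 and Cxcr3 are low in CD28-deficient Tconv alone, and Tox2, Asb2, Cebpa and Cd22 are lower in both populations; in Il2rb and Foxp3 the triangle of CD28-deficient Tconv stands above its group.

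Without CD28-deficient Tconv replicate 3 the difference passed for 26 genes, 0.215% of those tested, and all 26 were above 0 (424 genes at an unadjusted p under 0.05). The 26 held Itga7, Mir1247, Mir3058 and 23 further genes. Of the 24 that are no microRNA locus, 22 had their highest CD28-deficient Tconv value in replicate 3. Of these 24 only Itga7 passed with all 12 libraries, so that count follows partly from leaving replicate 3 out. For none of the 24 did the effect in Nrp1+ Treg pass in the same fit (0.297% of all tested genes did, in either direction), with effects between -1.0 and 0.85 and a median of -0.08. For all 24 the effect in Tconv passed (as for 1.73% of all tested genes, below 0), with effects between -5.16 and -0.73 and a median of -2.06. The difference that chose the 24 is made of these effects in the same fit. Their passing and their sizes therefore follow partly from that choice and are no separate support. Effects were below 0 in both populations for 17 of the 24 and below 0 in Tconv alone for 7. For 18 of them the wild type mean was higher in Nrp1+ Treg than in Tconv. Smtn, one of the 24, entered the test through wild type Tconv alone. CD28-deficient Tconv replicate 3 held Foxp3 at 21.1 FPKM, and the part of its Treg transcripts in the values of the 24 genes was not tested.

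Type 1 effector genes made up the set with the widest gap between the populations. Of 15 tested genes of the Th1 list all 15 differences were above 0, with a median of 1.37 against 0.12 over all genes, and that count stayed at 15 under each of 3 other scalings (medians 1.23 to 1.3). None of the 15 differences passed with 12 libraries and 4 passed without CD28-deficient Tconv replicate 3. In Nrp1+ Treg none of the 15 passed, with a median of -0.09. In Tconv 9 of the 15 fell (0.941% of all tested genes did), with a median of -1.87. Of the 15, 3 were near 0 in wild type Nrp1+ Treg, where little could fall, and they are in these counts and medians. Any member that entered through wild type Tconv alone had to differ to be tested. Over the 6 libraries of Nrp1-negative Treg the median was -0.75 and 1 of the 15, Ccl5, fell (0.066% of all tested genes did). Whether Tconv held fewer Th1 cells or less of these RNAs per cell cannot be told apart in bulk libraries, and the same holds for each gene group below.

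Among the ligands of that list, Ccl5, a chemokine that attracts T cells, had the widest range. It was 14.7, 19.1 and 13.7 FPKM in CD28-deficient Nrp1+ Treg, against 42.9, 28.7 and 27.5 FPKM in wild type Nrp1+ Treg. In Tconv the CD28-deficient libraries held 3.81, 3.28 and 7.55 FPKM, against 381, 132 and 82.7 FPKM in the wild type ones. The groups did not overlap in either population, and the wild type Tconv values were widely spread. The difference was 3.85 ± 0.66 with all 12 libraries (adjusted p = 0.120) and 4.16 without CD28-deficient Tconv replicate 3 (adjusted p = 0.0489), with an effect of -1.0 in Nrp1+ Treg that did not pass and -4.85 in Tconv that did. Without wild type Tconv replicate 1, which held the 381 FPKM, the Ccl5 difference was 3.23 and passed (adjusted p = 0.0348). Ifng, the cytokine of Th1 cells, was 13.3, 19.0 and 10.9 FPKM in CD28-deficient Nrp1+ Treg and 14.4, 5.52 and 8.53 FPKM in wild type Nrp1+ Treg. In Tconv it was 0.690, 1.11 and 2.73 FPKM in CD28-deficient libraries and 28.3, 6.58 and 8.45 FPKM in wild type libraries. The Ifng difference of 3.05 did not pass with all 12 libraries (adjusted p = 0.402), without CD28-deficient Tconv replicate 3, or without wild type Tconv replicate 1 (2.45, adjusted p = 0.422).

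Cxcr3, the receptor of the interferon-induced chemokines, was level across the genotypes in Nrp1+ Treg, with 35.7, 33.9 and 36.1 FPKM in CD28-deficient libraries inside the wild type range of 38.6, 32.0 and 43.6 FPKM. In Tconv it was 1.78, 2.64 and 9.52 FPKM in CD28-deficient libraries, against 42.5, 35.2 and 27.2 FPKM in wild type libraries. The highest of the 3 low values was that of replicate 3. The difference was 2.80 ± 0.55 with all 12 libraries (adjusted p = 0.231) and 3.38 ± 0.27 without replicate 3 (adjusted p = 0.000838). Nkg7, a membrane protein of cytotoxic granules, was 36.5, 34.9 and 27.3 FPKM in CD28-deficient Nrp1+ Treg against 24.7, 17.5 and 30.4 FPKM in wild type Nrp1+ Treg, and 2.09, 1.84 and 9.0 FPKM in CD28-deficient Tconv against 54.8, 29.9 and 25.6 FPKM in wild type Tconv. Its difference was 3.46 with all 12 libraries (adjusted p = 0.145) and 4.04 without replicate 3 (adjusted p = 0.00419). Genes of this list are also read in NK cells. Of 11 NK cell markers, 4 reached the filter. The sum of all 11 lay between 3.09 and 8.89 FPKM in CD28-deficient and 3.33 and 4.54 FPKM in wild type Nrp1+ Treg. In Tconv it lay between 17.98 and 38.2 FPKM in CD28-deficient and 28.5 and 32.0 FPKM in wild type libraries. Ncr1, which defines NK cells, was at or under 0.0873 FPKM in all 12 libraries, and of the 4 markers 1, Gzma, fell in Tconv. Among markers under the filter, Klre1 was 0.117, 0.067 and 0.116 FPKM in CD28-deficient and 1.01, 0.468 and 0.519 FPKM in wild type Tconv. Klrk1 was 0.282, 0.331 and 0.311 FPKM in CD28-deficient and 0.762, 0.638 and 0.676 FPKM in wild type Tconv. Klra1, Klra4, Klra8, Itga2 and Ncr1 overlapped between the genotypes in Tconv. The part of NK cell transcripts in the values of the Th1 list was not tested.

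Th17 genes, of which 6 were tested, had a median difference of 0.63 with none called on either side. Follicular helper genes had a median difference of 0.59 over 18 tested genes, with 16 of them above 0, against 73.9% of all tested genes. Under each of the 3 other scalings 13 were above 0, with medians of 0.41 to 0.49. In Nrp1+ Treg 1 of the 18, Tox2, fell (0.14% of all tested genes did), with a median effect of -0.46. In Tconv 7 fell (0.941% of all tested genes did), with a median of -1.0. Of the 18, 2 were near 0 in wild type Nrp1+ Treg, where little could fall, and they are in these counts and medians. None of the differences passed with 12 libraries, and 3 (Cxcr5, Angptl2 and Gpm6b) passed without CD28-deficient Tconv replicate 3. Cxcr5, the receptor that leads T cells into follicles, was 13.5, 15.8 and 13.2 FPKM in CD28-deficient Nrp1+ Treg, against 15.8, 20.5 and 22.0 FPKM in wild type Nrp1+ Treg. In CD28-deficient Tconv it was 0.623, 1.13 and 4.44 FPKM, against 10.4, 10.95 and 6.66 FPKM in wild type Tconv. The Tconv groups did not overlap, and replicate 3 lay closest to wild type. The Cxcr5 difference was 1.51 with all 12 libraries (adjusted p = 1.0) and 2.03 ± 0.30 without replicate 3 (adjusted p = 0.0375). Bcl6, the transcription factor of follicular helper cells, had effects of -0.45 in Nrp1+ Treg and -0.58 in Tconv, neither of which passed, and a difference of 0.13 (95% interval -0.28 to 0.55).

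Il21, the cytokine of follicular helper cells, and Sostdc1, a secreted BMP antagonist, entered the test through wild type Tconv alone, so they had to differ to be tested. Il21 was 0.030, 0.035 and 0 FPKM in CD28-deficient and 0.268, 0.075 and 0.082 FPKM in wild type Nrp1+ Treg, against 0.037, 0.033 and 0 FPKM in CD28-deficient and 1.31, 2.61 and 1.51 FPKM in wild type Tconv. Their differences of 1.27 and 1.36 did not pass with 12 libraries (adjusted p = 0.120 for both) and, as with Gzmk and Smtn, little could fall in Nrp1+ Treg.

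Casp1, Casp4 and Itgb1 fell in Tconv and did not pass in Nrp1+ Treg. Casp1, the protease that matures IL-1 beta and IL-18, was 19.3, 14.2 and 13.9 FPKM in CD28-deficient and 21.7, 20.7 and 25.6 FPKM in wild type Nrp1+ Treg, against 0.579, 0.694 and 1.86 FPKM in CD28-deficient and 10.1, 8.58 and 8.65 FPKM in wild type Tconv. The groups did not overlap in either population; the effect was -0.51 in Nrp1+ Treg, which did not pass, and -2.36 in Tconv, which did. Its difference was 1.85 with all 12 libraries (adjusted p = 0.120) and 2.12 without replicate 3 (adjusted p = 0.00477). Casp4, its neighbour and paralog, also passed without replicate 3 (1.38), and reads shared by the paralogs could not be told apart here. Itgb1, the beta 1 integrin subunit that pairs with Itga7, was 134, 140 and 108 FPKM in CD28-deficient and 108, 113 and 118 FPKM in wild type Nrp1+ Treg, against 9.44, 14.3 and 27.9 FPKM in CD28-deficient and 49.0, 64.7 and 47.3 FPKM in wild type Tconv. Its difference was 1.87 with all 12 libraries (adjusted p = 0.347) and 2.26 without replicate 3 (adjusted p = 0.00832). The list of S100, galectin and annexin genes had 15 of 16 differences above 0 (median 0.53), against 73.9% of all tested genes. It had no falls in Nrp1+ Treg, 4 in Tconv, and 1 difference, that of Anxa2 (2.35), that passed without replicate 3. The S100 genes with the largest falls in Tconv were S100a4 and S100a6, with effects of -0.44 and -0.54 in Nrp1+ Treg and of -3.17 and -3.04 in Tconv.

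For Il2rb, a gene far more abundant in Nrp1+ Treg, the difference turned on replicate 3. Il2rb, the beta chain shared by the IL-2 and IL-15 receptors, was 256, 280 and 200 FPKM in CD28-deficient Nrp1+ Treg, against 257, 298 and 371 FPKM in wild type Nrp1+ Treg. In CD28-deficient Tconv it was 5.11, 6.86 and 59.5 FPKM, against 37.3, 39.9 and 36.4 FPKM in wild type Tconv. Replicates 1 and 2 lay below the wild type range and replicate 3 above it. With all 12 libraries the difference was 1.12 ± 0.92 (adjusted p = 1.0), and without replicate 3 it was 2.16 ± 0.27 (adjusted p = 0.0106). Nrn1 (neuritin), Serpina3g, Synpo, Zdhhc2, Inppl1, Il9r, Farp1, Crmp1 and Podnl1 complete the 24, with differences of 1.22 to 2.41 in that fit. Among these Podnl1 alone had a higher wild type mean in Tconv than in Nrp1+ Treg. Nrn1 was 59.3, 61.2 and 46.5 FPKM in CD28-deficient and 27.6, 28.6 and 34.9 FPKM in wild type Nrp1+ Treg, with no overlap and CD28-deficient libraries higher, against 0.789, 1.64 and 9.40 FPKM in CD28-deficient and 5.72, 5.43 and 5.11 FPKM in wild type Tconv. Its effect of 0.85 in Nrp1+ Treg did not pass.

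**Figure D3:**
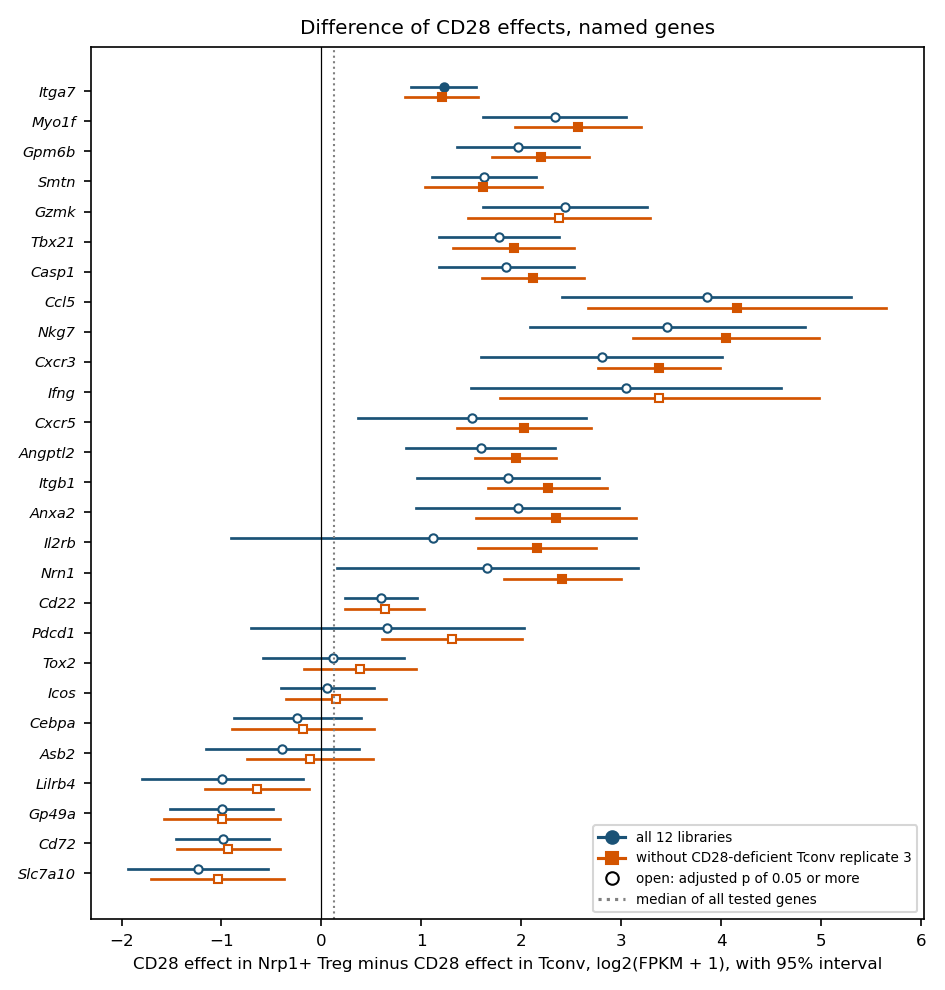
CD28 effect in Nrp1+ Treg minus CD28 effect in Tconv, in log2(FPKM + 1) with 95% intervals, for 27 genes with all 12 libraries (circles) and without CD28-deficient Tconv replicate 3 (squares); filled symbols passed at an adjusted p under 0.05 and the dotted line is the median of all tested genes, 0.12. Itga7 is the one filled circle, the upper genes lie above 0 in both fits, Tox2, Icos, Cebpa and Asb2 straddle 0 in both, and the interval of Il2rb narrows when the library is left out.

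Genes called as lower in both populations were 5, Tox2, Asb2, Cebpa, Cd22 and Apol9a, which is 29.4% of the 17 that fell in Nrp1+ Treg and 4.39% of the 114 that fell in Tconv. Apol9a entered the test through wild type Nrp1+ Treg alone, so it had to differ to be tested. It was near 0 in wild type Tconv, at 0.622, 0.523 and 0.584 FPKM. Tox2, an HMG box transcription factor, was 2.90, 3.03 and 3.73 FPKM in CD28-deficient Nrp1+ Treg, against 11.8, 11.5 and 17.4 FPKM in wild type Nrp1+ Treg. CD28-deficient Tconv held 0.216, 0.153 and 1.06 FPKM, against 3.73, 4.57 and 4.59 FPKM in wild type Tconv. No groups overlapped, the effects were -1.77 in Nrp1+ Treg and -1.89 in Tconv, and the difference was 0.12 (95% interval -0.59 to 0.83), or 0.39 (-0.17 to 0.95) without CD28-deficient Tconv replicate 3. Asb2, a subunit of an E3 ubiquitin ligase, was 1.61, 2.31 and 2.99 FPKM in CD28-deficient and 8.71, 9.06 and 10.1 FPKM in wild type Nrp1+ Treg, against 0.287, 0.388 and 1.38 FPKM in CD28-deficient and 3.87, 2.73 and 2.27 FPKM in wild type Tconv. The Asb2 difference was -0.39 (95% interval -1.15 to 0.37), or -0.11 (-0.74 to 0.51) without replicate 3. Cebpa, a transcription factor best known from myeloid cells, was 1.49, 0.984 and 1.13 FPKM in CD28-deficient and 5.94, 4.85 and 7.08 FPKM in wild type Nrp1+ Treg, against 0.173, 0.068 and 0.255 FPKM in CD28-deficient and 3.36, 1.57 and 1.65 FPKM in wild type Tconv. Its difference was -0.24 (95% interval -0.88 to 0.40). The intervals are wide, that of Asb2 reaching -1.15, so equal effects are not shown. These calls in Nrp1+ Treg also rest on every library of the CD28-deficient group. Without its replicate 1, 2 or 3 the genes that fell there were 7, 0 and 1, the last time Gp49a alone.

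Cd22, a sialic acid binding receptor best known as an inhibitor of B cell receptor signals, was 0.694, 0.491 and 0.532 FPKM in CD28-deficient and 2.41, 1.99 and 2.30 FPKM in wild type Nrp1+ Treg, against 0.276, 0.250 and 0.372 FPKM in CD28-deficient and 3.40, 3.12 and 2.595 FPKM in wild type Tconv. Its effect was -1.04 in Nrp1+ Treg and -1.63 in Tconv, with a difference of 0.59 (95% interval 0.23 to 0.95, adjusted p = 0.705). Cd22 belongs to the list of 10 B cell markers, of which 3 were tested. Their 10-gene sum lay between 6.54 and 7.09 FPKM in CD28-deficient and 13.4 and 15.2 FPKM in wild type Nrp1+ Treg, and between 1.48 and 4.06 FPKM in CD28-deficient and 4.61 and 5.59 FPKM in wild type Tconv. Cd79b, a chain of the B cell receptor complex, made up most of that sum in Nrp1+ Treg, at 4.79, 4.79 and 4.29 FPKM in CD28-deficient and 9.90, 9.89 and 9.85 FPKM in wild type libraries, against 0.228, 0.986 and 1.56 FPKM in CD28-deficient and 0.791, 0.641 and 0.446 FPKM in wild type Tconv. The Cd79b groups did not overlap in Nrp1+ Treg, where its effect of -0.95 did not pass (adjusted p = 0.215). Cd79a, the partner chain, lay between 0.571 and 1.07 FPKM in CD28-deficient and 0.634 and 2.27 FPKM in wild type Nrp1+ Treg, with overlap. The part of B cell transcripts in the Cd22 values was not tested. The B cell genes Ms4a1 and Pax5 were each at or under 0.150 FPKM in all 12 libraries. Icos, a costimulatory receptor related to CD28, had effects of -0.70 in Nrp1+ Treg (adjusted p = 0.170) and -0.76 in Tconv (adjusted p = 0.0425), with a difference of 0.06 (95% interval -0.41 to 0.53), or 0.15 without replicate 3. Mki67, a marker of cycling cells, had a difference of 0.08 (95% interval -0.36 to 0.52), or 0.16 without replicate 3, and the 26 tested cell cycle genes had a median difference of -0.01, with 12 above 0 and none called on either side.

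Genes that fell in one population were mostly below 0 in the other too. Of 105 genes with regular symbols that fell in Tconv, 95 were below 0 in Nrp1+ Treg (90.5%, against 61.9% of all tested genes), 5 of them called. Their median effect was -0.29 in Nrp1+ Treg and -0.98 in Tconv, while all tested genes had medians of -0.05 in Nrp1+ Treg and -0.16 in Tconv. In Nrp1-negative Treg 82 of the 105 were below 0, where 16.1% of all tested genes were, with a median of -0.23. Of the 92 among them with a wild type mean of 1 FPKM or more in both populations, 82 were below 0 in Nrp1+ Treg, with a median of -0.31. In the other direction, 9 of the 17 genes that fell in Nrp1+ Treg were near 0 in wild type Tconv, among them the 7 that entered the test through wild type Nrp1+ Treg alone, and little could fall there. The other 8 were all below 0 in Tconv, where 78.3% of all tested genes were. Their median effect was -1.66 in Nrp1+ Treg and -1.06 in Tconv. The effect in the population that chose the genes is larger partly by that choice, so these medians do not measure a difference. Without CD28-deficient Tconv replicate 3, 174 of 196 genes that fell in Tconv were below 0 in Nrp1+ Treg, and without CD28-deficient Nrp1+ Treg replicate 3 it was 53 of 64.

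Below 0, where the fall was larger in Nrp1+ Treg or the rise in Tconv, no gene passed with all 12 libraries. The 5 of lowest p were Cd72, Renbp, Faim3, Gp49a and Slc7a10, and all but Cd72 were near 0 in wild type Tconv. Cd72, a receptor of B cells whose ligand is CD100, was 8.44, 9.59 and 9.61 FPKM in CD28-deficient Nrp1+ Treg, against 15.7, 15.4 and 14.9 FPKM in wild type Nrp1+ Treg. In CD28-deficient Tconv it was 9.89, 10.7 and 11.7 FPKM, against 10.8, 8.32 and 6.74 FPKM in wild type Tconv. The groups parted in Nrp1+ Treg and overlapped in Tconv. The difference was -0.99 ± 0.21 (95% interval -1.45 to -0.53, adjusted p = 0.297), and it was -1.15 and passed without wild type Tconv replicate 1 (adjusted p = 0.0437). Slc7a10, a transporter of small neutral amino acids, was 3.08, 2.69 and 2.30 FPKM in CD28-deficient and 6.54, 5.68 and 11.05 FPKM in wild type Nrp1+ Treg, against 0, 0 and 0.501 FPKM in CD28-deficient and 0.188, 0.052 and 0.128 FPKM in wild type Tconv. Its difference of -1.23 (adjusted p = 0.555) carries no more than the values in Nrp1+ Treg.

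Gp49a and Lilrb4, closely similar receptor genes of the leukocyte immunoglobulin-like family, fell in Nrp1+ Treg. Gp49a was 1.36, 0.914 and 0.626 FPKM in CD28-deficient and 5.71, 4.26 and 5.30 FPKM in wild type Nrp1+ Treg, against 0.033, 0.119 and 0.081 FPKM in CD28-deficient and 0.912, 0.780 and 0.396 FPKM in wild type Tconv. Their differences were -1.0 (adjusted p = 0.402) and -0.99 (adjusted p = 1.0), and because the genes share reads they are not separate observations. The 3 genes besides Mir1247 that rose in Nrp1+ Treg were Dscam, Scin and Igsf3, each under 1 FPKM in both wild type groups by mean. Dscam, an adhesion molecule of the immunoglobulin family, was 3.18, 2.97 and 2.82 FPKM in CD28-deficient and 0.819, 0.733 and 1.32 FPKM in wild type Nrp1+ Treg, and at most 0.422 FPKM in Tconv of either genotype. Its difference of 0.88 did not pass (adjusted p = 0.511), nor did those of Scin, an actin-severing protein (0.85), and Igsf3 (0.66).

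The Treg program was on neither side a source of calls with all 12 libraries. Of 21 tested genes of the Treg signature none passed in Nrp1+ Treg or in Tconv, and the median difference was -0.22, with 6 above 0. Without CD28-deficient Tconv replicate 3 the median was 0.22 with 14 above 0, and 3 genes fell in Nrp1+ Treg and 6 in Tconv, so the direction of this list turned on the library that held Treg transcripts. Nrp1 in Tconv gives an example, at 0.627, 0.841 and 12.8 FPKM in CD28-deficient libraries and 2.99, 4.99 and 5.08 FPKM in wild type libraries, and its fall in Tconv passed when replicate 3 was left out (effect -1.60, adjusted p = 0.00557). Effector Treg genes, which mark activated Treg but are also read in effector Tconv, had medians of -0.70 in Nrp1+ Treg and -0.80 in Tconv over 23 tested genes, of which none fell in Nrp1+ Treg and 6 fell in Tconv. Their differences had a median of 0.23, against 0.12 over all genes, and 13 of 23 were above 0, against 73.9% of all genes. Without CD28-deficient Tconv replicate 3 there were 5 falls in Nrp1+ Treg and 11 in Tconv, with a median difference of 0.36. With all 12 libraries they ran from Myo1f, S100a4 and Lag3 (1.47) at the upper end to Klrg1 (-1.71), a receptor of terminally differentiated effector cells that was near 0 in wild type Tconv, and none passed; without replicate 3 the difference of Myo1f passed.

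**Figure D4:**
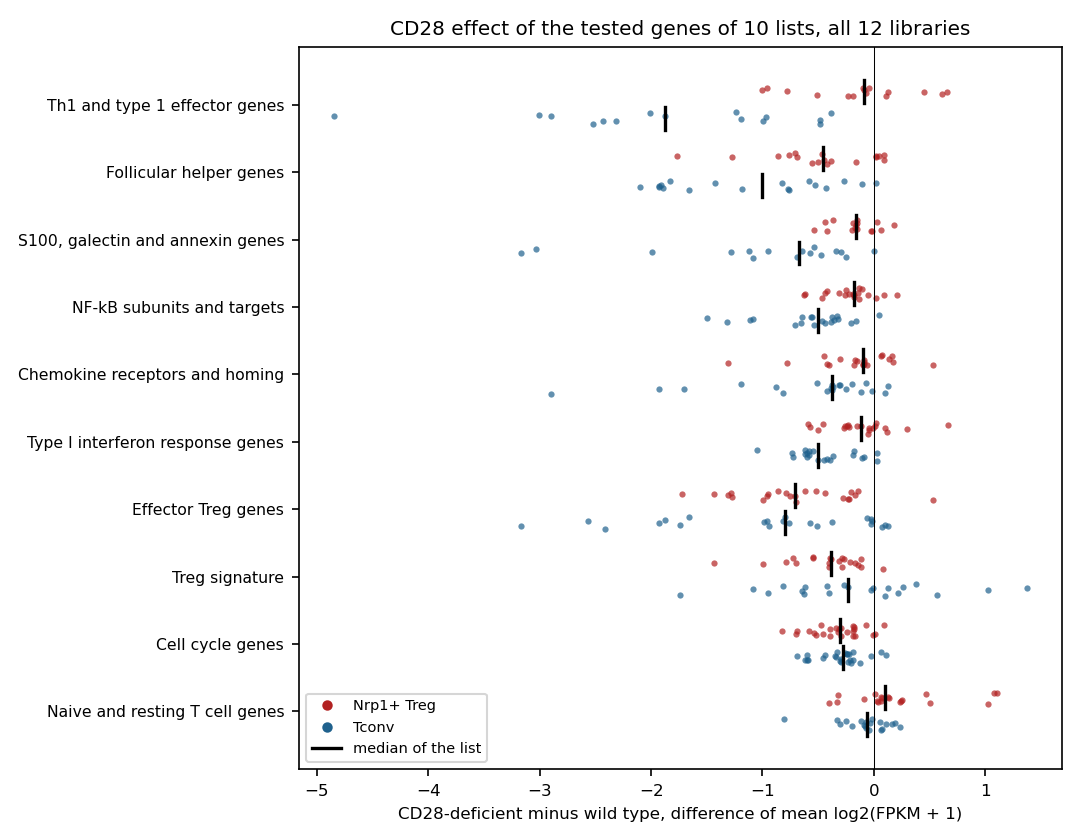
CD28 effect (CD28-deficient minus wild type mean log2(FPKM + 1), all 12 libraries) of each tested gene in 10 lists, with Nrp1+ Treg above Tconv in each pair and black ticks for list medians. The Th1 list shows the widest gap between medians, -0.09 in Nrp1+ Treg and -1.87 in Tconv, while the effector Treg and cell cycle lists have nearly equal medians.

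Signalling and housekeeping lists gave smaller medians. Over all tested genes 73.9% of differences were above 0 and 0.941% of genes fell in Tconv. The sign counts of the chemokine receptor and naive lists below lie near that 73.9%. NF-kB subunits and targets had 17 of 20 differences above 0 (median 0.40), but 12 to 17 of 20 under the other scalings. None of them fell in Nrp1+ Treg and 4 fell in Tconv (among them Bcl3 and Icam1). Chemokine receptors and homing genes had 16 of 21 above 0 (median 0.32), with no falls in Nrp1+ Treg and 5 in Tconv, and Cxcr3, Cxcr5 and Itgb1 passed for the difference without replicate 3. Type I interferon response genes had 21 of 21 above 0 (median 0.29), but 14 to 17 of 21 under the other scalings, with none in Nrp1+ Treg falling and 3 falling in Tconv (among them Irf9 and Oas1a). Cytosolic ribosomal protein genes had 30 of 30 above 0 with a median of 0.24, which was 0.02 after quantile normalization, so a count of signs moves with the scaling where effects are small. Targets of IL-2 and STAT5 had a median of -0.03 with 8 of 18 above 0, immediate early genes -0.04 with 8 of 21, and naive and resting T cell genes 0.26 with 14 of 20, none of them called for the difference.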

How the data were processed

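RNA was measured in 18 libraries of sorted spleen T cells, of which 12 form the comparison. Per the labels, total RNA was extracted with TriReagent and made into NEBNext Ultra libraries read as single reads of 50 bases. The deposited values are one number per gene symbol and library, taken as FPKM because the submitters' processing notes name Cufflinks, with Trimmomatic 1, TopHat2 2.0.11 and GRCm38, and the values are fractional and never negative; the file headers name no unit. Annotation and strand setting are not given in the sources used here. Low values did not fall on steps shared between libraries, so no reads were recovered, the depth is unknown and no counting interval is given.

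Genes at an FPKM of 1 or more in 3 or more of the 12 libraries were transformed as log2(FPKM + 1) and modelled in R 4.3.3 by limma 3.58.1, with one mean per group, a variance trend, 8 residual and 2.96 prior degrees of freedom, two-sided tests and Benjamini-Hochberg adjustment over 12113 genes within each of 3 contrasts. All adjusted p-values in the text are from limma, Nrp1-negative Treg being fitted apart on their 6 libraries. A call is an adjusted p under 0.05; "rose" and "fell" are used of calls. The code was tested on simulated data.

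The members and the 28 gene lists (440 genes, 426 in the files, 371 tested) were chosen with earlier results of these data known, so counts over a list are descriptions. The genes named are Cd28, Foxp3 and Nrp1, the called genes, the 5 of lowest p each way, at most 4 called members of each list, and a set of fixed genes (Ikzf2, Il2ra, Ctla4, Icos, Tox2, Asb2, Cebpa, Lilrb4, Cd22, Lif, Igsf3, Ccl5, Cxcr3, Ifng, Pdcd1, Cxcr5, Bcl6, Mki67, Bcl2, Dapl1 and Igfbp4); unnamed gene models, receptor segments and small RNAs were outside that rule. Mir1247 and Mir3058, the genes called without CD28-deficient Tconv replicate 3, and further list members were named after their values were seen. Positions are from GENCODE M21 on GRCm38.

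Alternatives were a pseudocount of 0.1, no filter, a filter on wild type means, no variance trend, all 18 libraries in the fit, a replicate block, quantile normalization, median centring, a common sum without microRNA loci, and leaving out each library. Replicate numbers were not taken as pairs: of 18 pairs of libraries of equal number, 16 had a correlation of deviations from the group mean over 0.1 (lowest 0.0469).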

Additional observations from a re-analysis of the deposited data

Results flagged for a closer look

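Itga7 was picked out because its CD28 effects in the populations differed by a test of the difference itself (1.22 in limma's fit, Benjamini-Hochberg adjusted p = 0.0287). All 3 CD28-deficient libraries lay above all 3 wild type libraries in Nrp1+ Treg and below all 3 in Tconv. These are the values behind the test and no separate support.

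Mir1247 was picked out by the same test (5.08, adjusted p = 1.15e-07). It was above 0 in 3 of 3 CD28-deficient Nrp1+ Treg libraries and listed at 0 in the other 9 of the comparison. It entered the test through that one group, so it had to differ to be tested, and its p-value is a description.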

How the results depend on the processing

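With the settings of the report 2 differences, 21 effects in Nrp1+ Treg and 114 effects in Tconv passed. The difference gave 8 calls with no filter on low values, 16 with all 18 libraries in the fit, 1 with median centring and 0 among genes with a wild type mean of 1 FPKM or more in both populations, where Itga7 had an adjusted p of 0.0531 in limma and Mir1247 is not tested. It gave 11 calls with replicate 3 of CD28-deficient Tconv and of CD28-deficient Nrp1+ Treg left out together, and 19 with wild type Tconv replicate 1 left out as well, a choice made after seeing the data. For Nrp1+ Treg the calls were 2 with a pseudocount of 0.1, 46 with no filter, 4 among genes at 1 FPKM or more in both wild types and 11 with median centring. For Tconv they were 51 after quantile normalization, 41 after median centring and 37 at a common sum. Leaving out 1 library gave 1 to 26 calls for the difference, 1 to 36 for Nrp1+ Treg and 29 to 210 for Tconv. For the difference it was 26 without CD28-deficient Tconv replicate 3, 8 without wild type Tconv replicate 1, 7 without wild type Tconv replicate 3, and 1 without CD28-deficient Tconv replicate 1 or 2, CD28-deficient Nrp1+ Treg replicate 2 or 3, wild type Tconv replicate 2 or wild type Nrp1+ Treg replicate 1. The Itga7 effect in Nrp1-negative Treg was 0.05 and ran from -0.016 to 0.12 on leaving out 1 library. Neither of the 2 differences called with the report's settings changed sign. The cause of these changes was not tested, except that fewer genes or samples enter some fits.

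With a replicate block the calls were 3 for the difference, 24 for Nrp1+ Treg and 136 for Tconv, within 1.5 times the counts without it. Each of the 12 libraries correlated best with a library of its own number, which is a hint from the data and not a pairing by design.

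Of the values of single named genes under the alternatives, 727 kept direction and side of the threshold, 37 gained a call and 15 lost one. The other 39 changed direction, without a call in either setting. Depth is unknown, so values under 1 FPKM have no stated precision.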
